A study of Mus musculus with 6 samples.

Results

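Bone is dissolved by osteoclasts, and the 10 genes described here carry out, support or restrain that step. They are Acp5, Ctsk, Car2, Clcn7, Ostm1, Slc4a2, Calcr, Plekhm1, Snx10 and Sort1. They were chosen by name, for roles in acid secretion, traffic to the ruffled border, digestion of matrix and, for Calcr, hormone control. Each matched a single row among the 26699 genes of the deposited data. All 10 were abundant enough to be tested, among 16843 tested genes. Expression was measured by RNA sequencing of polyadenylated RNA in primary mouse bone marrow macrophages turning into osteoclasts. Mice of 8 weeks gave the hindlimb marrow, which grew first in M-CSF (10 ng/mL), needed for macrophage survival, and then for 48 hours in RANKL (50 ng/mL), the signal for osteoclast differentiation, with M-CSF raised to 30 ng/mL. The 3 control libraries came from Slc11a2flox/flox cells, in which loxP sites flank part of the gene for DMT1, a transporter of ferrous iron. The 3 knockout libraries (cKO) came from LysmCre-Slc11a2flox/flox cells, which carry the same alleles and Cre recombinase driven by the lysozyme M gene, active in the myeloid lineage. The controls, from the same litters as far as the series' design says, had no Cre, so Cre itself and its place in the lysozyme gene cannot be told apart from loss of Slc11a2. The labels do not say whether each library had its own mouse or culture; p-values therefore reflect only variation among these 6 libraries, some of which may be technical.

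A resorbing osteoclast seals a patch of bone beneath a folded membrane, the ruffled border, which forms as lysosomes fuse with the cell surface. Carbonic anhydrase in the cytosol makes protons and bicarbonate; the vacuolar proton pump drives the protons out across the ruffled border, a chloride-proton exchanger moves chloride along with them, and an anion exchanger on the opposite face of the cell removes the bicarbonate. The acid dissolves the mineral, and lysosomal enzymes released into the same space, above all cathepsin K, cut the exposed collagen. Loss of several of these genes in people or mice gives dense bone, osteopetrosis or a related disorder, because osteoclasts form but cannot resorb.

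Promoter sequence is shown for 5 members (Acp5, Ctsk, Slc4a2, Snx10 and Clcn7) in windows chosen because they hold an E-box or a PU.1 core, so that a match in them is no finding. RefSeq promoters on GRCm38.p6, the build that mm10 names, were found for 8 of the 10 genes, at 15 start sites; Car2 and Sort1 had no entry. Up to 250 bases upstream of a start site are given 5′ to 3′ on the gene's strand, without bases that fall in an annotated exon of the gene. Capitals mark matches, on either strand, to the E-boxes CACGTG and CATGTG, which MITF and TFE factors bind, to the AP-1 motif TGANTCA and to the PU.1 core GAGGAA. The Acp5 window (chr9:22130609-22130848, minus strand) lies before the most downstream of its 3 start sites, inside an intron of the longer transcripts. The others are Ctsk (chr3:95498960-95499209, plus strand), Slc4a2 (chr5:24424982-24425231, plus strand, first of 2 start sites), Snx10 (chr6:51523653-51523900, plus strand, first of 3) and Clcn7 (chr17:25133141-25133390, plus strand, first of 2).
Acp5: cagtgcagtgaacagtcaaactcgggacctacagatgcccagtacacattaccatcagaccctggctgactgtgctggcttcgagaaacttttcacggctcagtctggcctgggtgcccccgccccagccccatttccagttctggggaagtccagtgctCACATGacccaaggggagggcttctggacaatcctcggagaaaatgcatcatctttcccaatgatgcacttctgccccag
Ctsk: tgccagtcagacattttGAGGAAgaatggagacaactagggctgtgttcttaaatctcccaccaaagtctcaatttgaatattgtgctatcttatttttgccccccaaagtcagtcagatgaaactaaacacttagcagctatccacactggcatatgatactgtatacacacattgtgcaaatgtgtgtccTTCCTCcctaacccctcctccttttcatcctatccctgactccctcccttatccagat
Slc4a2: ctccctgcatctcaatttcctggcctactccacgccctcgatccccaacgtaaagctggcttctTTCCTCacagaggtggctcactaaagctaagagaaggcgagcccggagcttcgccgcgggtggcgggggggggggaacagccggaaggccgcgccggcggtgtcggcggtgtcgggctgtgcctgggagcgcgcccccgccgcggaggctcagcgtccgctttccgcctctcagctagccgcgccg
Snx10: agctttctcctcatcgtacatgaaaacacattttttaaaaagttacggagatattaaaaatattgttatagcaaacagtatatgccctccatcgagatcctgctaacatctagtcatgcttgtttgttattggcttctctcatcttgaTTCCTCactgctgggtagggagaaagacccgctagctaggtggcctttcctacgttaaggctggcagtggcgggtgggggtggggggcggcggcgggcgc
Clcn7: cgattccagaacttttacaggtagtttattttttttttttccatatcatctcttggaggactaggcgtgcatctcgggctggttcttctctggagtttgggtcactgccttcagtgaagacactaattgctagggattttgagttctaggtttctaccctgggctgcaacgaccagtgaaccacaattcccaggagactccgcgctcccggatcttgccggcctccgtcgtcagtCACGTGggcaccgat

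The Acp5 window held an E-box of the form CATGTG, beginning 90 bases before the start and read as CACATG on the gene's strand, and the Clcn7 window held the palindrome CACGTG beginning 15 bases before its start. Ctsk had 2 PU.1 cores, beginning 233 and 58 bases before the start, and Slc4a2 and Snx10 had 1 each. Of the members' 15 start sites, 1 had CACGTG, 2 had CATGTG, 1 had the AP-1 motif and 3 had the PU.1 core; the windows of Ostm1, Plekhm1 and Calcr had none of these. Among 32851 windows of 250 bases at all RefSeq starts, 6.02% held CACGTG, 12.3% CATGTG, 6.75% the AP-1 motif and 23.3% the PU.1 core. The NFAT core GGAAA, which overlaps the PU.1 core where an A follows, was in 55.6% of windows and in those of 5 members, and it is not capitalised. A match describes letters in a window and is not a measured binding site, and the counts per gene do not tell start sites apart.

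The libraries held 49720701 to 57797282 counted reads, so that 1 read was worth 0.0173 to 0.0201 CPM (reads scaled to a common library size). Slc11a2 stood at 110 to 118 CPM in the controls and at 78.3 to 87.4 CPM in cKO cells, and Lyz2, the Cre driver gene, at 16030 to 18920 and 7708 to 7892 CPM, so neither gene's groups overlapped. Osteoclast marker genes were present in every library, 9 of 9 of them, with a summed level of 8380 to 10600 CPM in control and 6330 to 8900 CPM in cKO cells. Most of the sum was Mmp9, at 6377 ± 899 and 4670 ± 1015 CPM. Of the 9, 0 had an edgeR adjusted p below 0.05. All 9 log2 fold changes were negative, from -0.47 for Ocstamp to -0.01 for Atp6v0d2, with a median of -0.24. At an unadjusted edgeR p below 0.05, 1 was lower, where 8.79% of all tested genes were. The 10 macrophage markers summed to 8740 to 9640 and 8370 to 8780 CPM. Of these 0 rose and 1 fell, where 1.06% of all tested genes fell, and 7 were negative. The 1 was C1qa, a complement gene (-0.45 ± 0.08, edgeR adjusted p = 0.0126, and up to 0.0741, without control replicate 1). Mertk was positive, at 0.23 ± 0.07 (adjusted p = 0.118). In such bulk RNA, fewer cells of a type and less RNA per cell cannot be told apart.

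Sort1 rose in cKO cells and was the only member that passed the test; the other 9 had negative log2 fold changes, of which none passed. Genotypes were compared across all genes with edgeR's quasi-likelihood test, and a gene was called at a Benjamini-Hochberg adjusted p below 0.05. By that rule 2.42% of all tested genes were called, 1.36% as higher and 1.06% as lower in cKO cells, against 1 of the 10 members as higher and 0 as lower. At an unadjusted p below 0.05, 5 members were lower, and 8.79% of all genes were. The groups did not overlap for 3 members on the lower side (Acp5, Ostm1 and Snx10), where 11.4% of all genes separated, and for 1 on the higher side, where 11.1% did. The members' median log2 fold change was -0.30, against 0.00 over all genes tested. All members were at 20 CPM or more; among the 6999 tested genes at that level the median was -0.03, 58.2% were negative, 4.09% were called and 17.9% separated on the lower side.

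**Figure D1:**
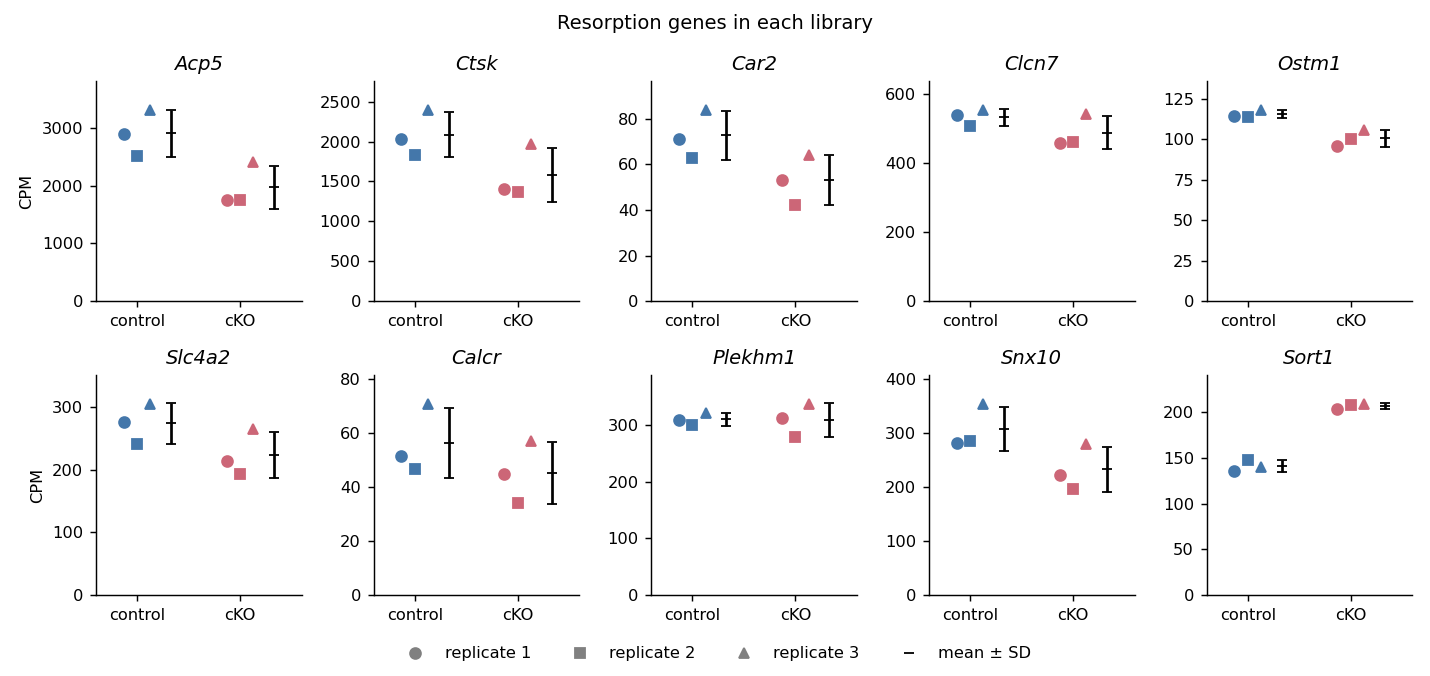
Level of each of the 10 genes in CPM (y axis, from 0) in the 3 control and 3 cKO libraries; symbols give the replicate number and black bars the mean ± SD. Acp5, Ostm1, Snx10 and Sort1 are separated between genotypes, and cKO replicate 3 (red triangle) is the highest cKO library for every gene.

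The matrix-digesting enzymes were the most abundant members. Acp5 encodes tartrate-resistant acid phosphatase, a secreted iron enzyme used to stain osteoclasts (ENSMUSG00000001348, mm10 chromosome 9, 22126727 to 22135711). Control replicates 1 to 3 held 2889, 2504 and 3312 CPM, and cKO replicates 1 to 3 held 1751, 1760 and 2401 CPM. Every cKO library lay below every control, with the narrowest gap between cKO replicate 3 and control replicate 2. The log2 fold change was -0.56 ± 0.15 (SE, n = 3 per genotype), 0.679 times the control level, with an edgeR adjusted p of 0.125. By the authors' FPKM, which divides by transcript length, Acp5 ranked 34 among all genes and Ctsk 33, at means of 1040 and 1051 FPKM over the 6 libraries.

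Ctsk encodes cathepsin K, the main collagenase of osteoclasts (ENSMUSG00000028111, chromosome 3, 95499256 to 95509362). Its level was 2029, 1835 and 2398 CPM in the controls and 1404, 1372 and 1966 CPM in cKO cells. Here cKO replicate 3 lay above control replicate 2, so the genotypes overlapped. The log2 fold change was -0.40 ± 0.17 (adjusted p = 0.288).

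Sort1 encodes sortilin, a receptor of the VPS10 family that carries proteins, lysosomal enzymes among them, from the Golgi towards endosomes (ENSMUSG00000068747, chromosome 3, 108284082 to 108361511). The controls held 135, 148 and 140 CPM, in replicate order, and the cKO libraries 203, 208 and 209 CPM. All cKO libraries were well above all controls, and the 3 cKO values had a coefficient of variation of 1.46%. The log2 fold change was 0.55 ± 0.06, 1.46 times the control level, with an adjusted p of 0.000402. Leaving out any of the 6 libraries kept the adjusted p at or below 0.00903.

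Of the acid-making genes, Car2 and Slc4a2 varied most and Ostm1 least. Car2 encodes carbonic anhydrase II, the cytosolic source of protons (ENSMUSG00000027562, chromosome 3, 14886273 to 14900770). It stood at 71.1, 62.9 and 83.9 CPM in the controls and at 52.9, 42.3 and 64.2 CPM in cKO cells, with cKO replicate 3 inside the control range. Its log2 fold change was -0.45 ± 0.17 (adjusted p = 0.262). Car2 is also abundant in red cell precursors, and the erythroid markers were near 0: 7 of 9 were listed, with a summed level of 0.68 to 1.29 CPM in control and 1.07 to 1.74 CPM in cKO cells. The part of such precursors in the Car2 values was not tested.

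Slc4a2 encodes the chloride-bicarbonate exchanger AE2, which removes bicarbonate (ENSMUSG00000028962, chromosome 5, 24423837 to 24440950). Its values were 276, 240 and 305 CPM in control and 214, 193 and 265 CPM in cKO libraries. The genotypes overlapped through cKO replicate 3, and the log2 fold change was -0.29 ± 0.13 (adjusted p = 0.309). Fastk, on the opposite strand, overlaps Slc4a2 over 2511 bp and stood at 19.3% of its level; since the counting is not stated to use strand, reads in that stretch cannot be told apart.

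Clcn7 and Ostm1 encode the chloride-proton exchanger of lysosomes and ruffled border and the small membrane protein that it needs for stability. For Clcn7 (ENSMUSG00000036636, chromosome 17, 25133391 to 25162104) the controls held 538, 506 and 554 CPM and the cKO libraries 459, 461 and 543 CPM, with cKO replicate 3 above 2 of the controls. Its log2 fold change was -0.13 ± 0.07 (adjusted p = 0.399), with a 95% interval of -0.29 to 0.03. For Ostm1 (ENSMUSG00000038280, chromosome 10, 42583822 to 42702459) the controls held 114.2, 113.7 and 118.1 CPM and the cKO libraries 95.56, 99.95 and 105.7 CPM. Its genotypes did not overlap and its controls were the tightest of any member (coefficient of variation 2.12%), but the change was small, at -0.20 ± 0.06 (adjusted p = 0.101). Per length, Clcn7 was more abundant, at 87.0 FPKM in control cells against 13.8 FPKM for Ostm1.

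Among the genes for traffic to the ruffled border, Snx10 and Plekhm1 differed in pattern. Snx10 encodes a sorting nexin of endosomes whose loss causes osteopetrosis (ENSMUSG00000038301, chromosome 6, 51523901 to 51590679). It stood at 282, 286 and 355 CPM in control and at 223, 197 and 279 CPM in cKO cells. The groups were separated only by the narrow gap between cKO replicate 3 and control replicate 1, and the log2 fold change was -0.40 ± 0.15 (adjusted p = 0.238). Plekhm1, a partner of the small GTPase RAB7 in lysosome positioning and fusion (ENSMUSG00000034247, chromosome 11, 103364275 to 103412687), had control values of 308, 299 and 321 CPM and cKO values of 312, 278 and 337 CPM. Its cKO values spanned the control values on both sides, and its log2 fold change was 0.00 ± 0.07 (adjusted p = 0.993), with a 95% interval of -0.16 to 0.15; the sign turned with DESeq2 size factors and without control replicate 3 or cKO replicate 2.

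Calcr, the receptor for calcitonin, the hormone that halts resorption, was the least abundant member per length, at 11.2 FPKM (ENSMUSG00000023964, chromosome 6, 3685680 to 3764714). It stood at 51.5, 46.5 and 70.9 CPM in control and 44.8, 34.0 and 57.0 CPM in cKO cells. The genotypes overlapped widely, the log2 fold change was -0.32 ± 0.26 (adjusted p = 0.615), and the 95% interval ran from -0.98 to 0.35.

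No order of the libraries was shared by more than 3 members, but the extremes recurred. Control replicate 3 held the highest value in 8 of 10 genes and cKO replicate 2 the lowest in 6. Ctsk, Car2 and Slc4a2 had the same order: control 3, control 1, cKO 3, control 2, cKO 1 and cKO 2, from high to low, and Acp5 and Ostm1 shared another. Relative to the control mean, the median member stood at -0.34 in cKO replicate 1, -0.55 in cKO replicate 2 and -0.07 in cKO replicate 3 on the log2 scale, and at -0.02, -0.15 and 0.17 in control replicates 1 to 3. The median over all tested genes was between -0.01 and 0.00 in each library. In a grouping made after the values were seen, Acp5, Ctsk, Car2, Slc4a2, Snx10 and Calcr had coefficients of variation of 11.9% to 22.9% among controls and 16.4% to 25.4% among cKO libraries. Clcn7, Ostm1, Plekhm1 and Sort1 had 2.12% to 4.58% and 1.46% to 9.84%.

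**Figure D2:**
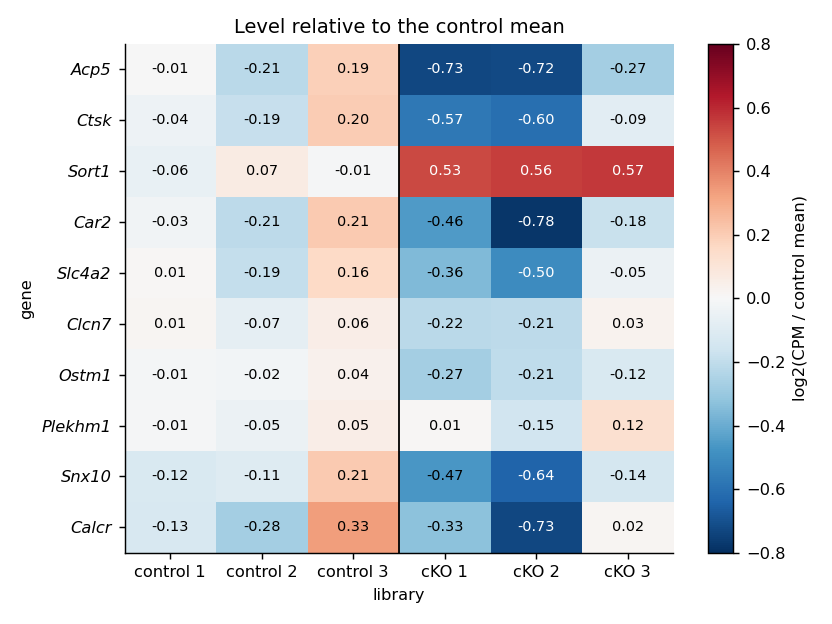
Log2 of each gene's CPM over its control mean, by gene (rows, by role from matrix digestion and enzyme sorting to acid secretion, lysosome traffic and hormone receptor) and library (columns); blue is lower and red higher than the control mean. The cKO replicates 1 and 2 are blue in most rows, cKO replicate 3 is pale, and Sort1 is red in all 3 cKO libraries, at 0.53 to 0.57.

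Which members passed depended on the libraries and on the fit. Without cKO replicate 3, 5 of the 10 members were called, Sort1 as higher and 4 as lower. In that fit 3.59% of all genes were called, 1.8% as higher and 1.79% as lower. The 4 were Acp5 (-0.72, adjusted p = 0.00438), Ctsk (-0.59, 0.00994), Snx10 (-0.55, 0.023) and Slc4a2 (-0.43, 0.0348). Without control replicates 1 to 3, where 0.522%, 0.954% and 0.667% of all genes were called, and without cKO replicates 1 and 2, where 0.341% and 1.36% were, Sort1 was the only member called. Sort1 was also the only call with DESeq2 size factors (2.4% of all genes called), without a filter on low counts (1.64%) and with the trend over transcript length removed (2.13%). DESeq2's Wald test called 3 members, where 6.04% of the 13237 genes that it gave an adjusted p were called. Limma-voom called 2 members, where 4.18% of 16843 genes were called. A fit with the replicate number as a block called 7, where 4% were. Across all 12 alternative fits, adjusted p-values spanned a range from 0.000827 to 0.307 for Acp5, from 0.00404 to 0.544 for Ctsk, from 0.00305 to 0.495 for Car2 and from 0.0459 to 0.378 for Ostm1; the lowest values for Acp5, Ctsk and Car2 came from the block.

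**Figure D3:**
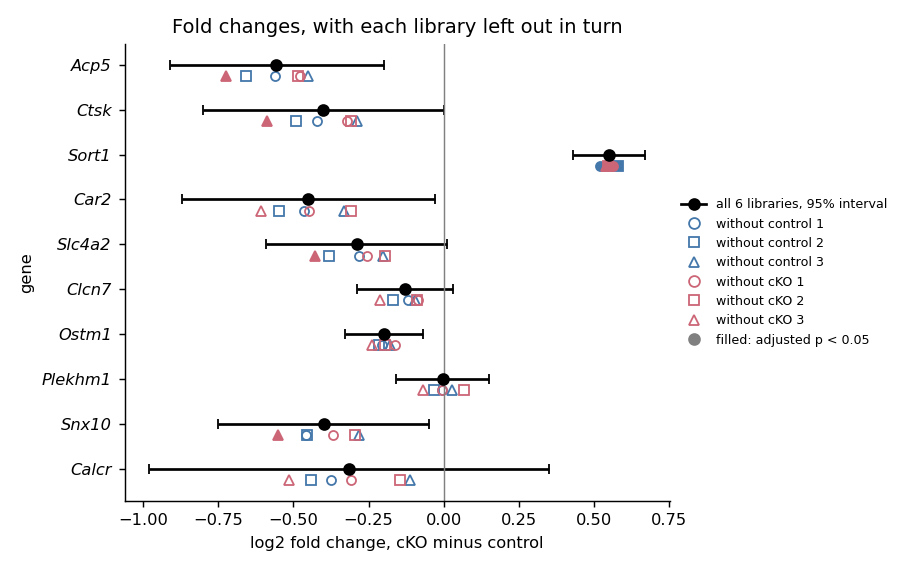
Log2 fold change of each gene, cKO minus control (x axis), with its 95% interval from the edgeR fit of all 6 libraries (black) and the fold changes with each library left out in turn (coloured, filled where the adjusted p was below 0.05). Without cKO replicate 3, Acp5, Ctsk, Slc4a2 and Snx10 become filled on the left of 0, and Sort1 is filled in all 6 fits.

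Markers of other cell types differed too. The stroma and osteoblast markers, 10 of 11 listed, had sums of 3680, 4010 and 3440 CPM in the controls, by replicate, and of 4100, 5190 and 3250 CPM in the cKO libraries, mostly from the collagen genes Col1a1 and Col1a2, which did not pass the test; Alpl, alkaline phosphatase, rose from 0.637 ± 0.314 to 2.32 ± 0.419 CPM (edgeR adjusted p = 0.0268; 0.173 without cKO replicate 1). The sum was highest in cKO replicate 2, where 6 members were lowest, and lowest in cKO replicate 3; their part in the members' values was not tested. Sort1 was as high in cKO replicate 3 as in the other cKO libraries, and the part of the stromal markers in its values was not tested either. Neutrophil markers, 9 of 10 listed, summed to 21.0 to 26.3 CPM in control and 47.8 to 61.8 CPM in cKO cells. Of 7 tested 4 rose and 0 fell, where 1.36% of all tested genes rose. S100a9, Ngp and Ltf stayed called without any library in turn. S100a8 did so in only 1 of those 6 fits (edgeR adjusted p up to 0.186, without cKO replicate 1). Mpo was negative (-0.82 ± 0.50, adjusted p = 0.438). The part of the neutrophil markers in the rise of Sort1 was not tested. Dendritic cell markers summed to 315 to 378 and 522 to 584 CPM, nearly all from Itgax, which macrophages also express; Flt3 and Xcr1 were near 0. Megakaryocyte markers summed to 43.0 to 57.1 and 31.1 to 38.7 CPM, mostly Pf4, the 1 called of 3 tested, where 1.06% of all tested genes fell. Pf4 was at -0.58 ± 0.12 (edgeR adjusted p = 0.0355, and up to 0.186, without cKO replicate 1). Itga2b and Ppbp stood at 0.763 and 1.36 CPM in control and at 0.661 and 0.864 CPM in cKO cells, and Gp9 and Gp1bb were near 0. Monocyte markers summed to 78.4 to 98.0 and 79.5 to 108 CPM, mostly F13a1. Of the 5 monocyte markers tested 1 rose and 0 fell, where 1.36% of all tested genes rose. The 1 was Ccr2, a chemokine receptor of monocytes, which rose from 3.69 ± 0.272 to 14.1 ± 2.83 CPM (1.93 ± 0.16, edgeR adjusted p = 7.9e-05). Ccr2 stayed called without any library in turn, and its part in the members' values was not tested. Plac8 (-0.449 ± 0.215, adjusted p = 0.31) and F13a1 (-0.05 ± 0.13, 0.891) were negative. Endothelial markers summed to 4.69 to 5.75 and 5.03 to 5.78 CPM, and B cell, T and NK cell and mast cell markers stayed at or below 1.09 CPM.

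**Figure D4:**
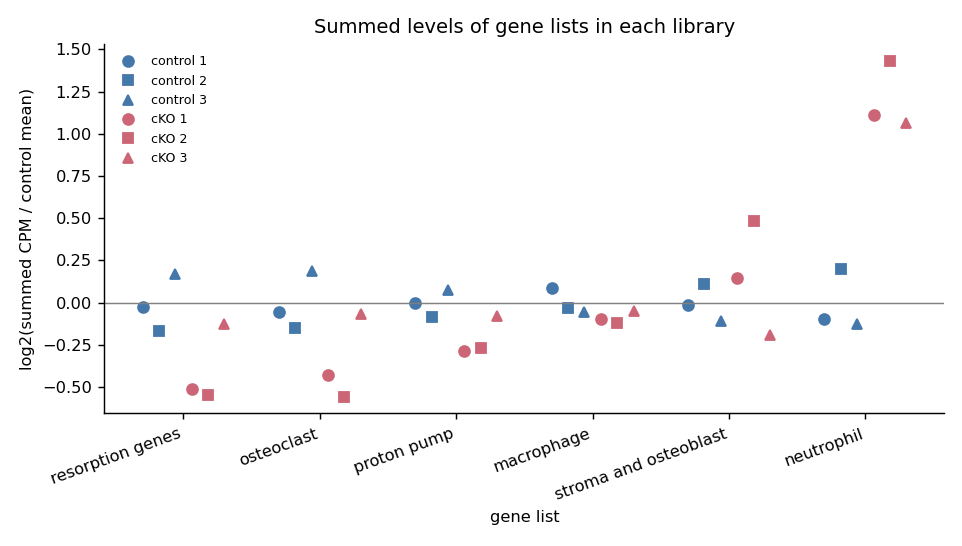
Summed CPM of the 10 resorption genes, the proton pump genes and 4 sets of cell type markers in each library, as log2 over the control mean (y axis). Sums of osteoclast markers, mostly Mmp9, and of resorption genes, mostly Acp5 and Ctsk, are lowest in cKO replicates 1 and 2. Stromal markers are highest in cKO replicate 2, and neutrophil markers are higher in all 3 cKO libraries.

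Acp5, Car2, Clcn7, Slc4a2, Sort1, Plekhm1 and Calcr had the highest level per length of their families, and the relatives that passed the test differed in direction. Among acid phosphatases, Acpp, a relative of Acp5, rose from 78.7 ± 3.72 to 97.9 ± 6.39 CPM (SD, n = 3; edgeR adjusted p = 0.0302), a call kept only without cKO replicate 2 or 3 when libraries were left out in turn (up to 0.177, without cKO replicate 1). Of 9 papain-like cathepsins tested, 1 rose and 0 fell. Ctsh, an aminopeptidase, had 114 ± 9.48 CPM in control and rose to 147 ± 10.8 CPM (adjusted p = 0.0292; kept only without cKO replicate 3, and 0.171 without cKO replicate 1), while Ctss was at 0.32 ± 0.08 (adjusted p = 0.0501) and Ctsl at 0.27 ± 0.09 (0.167). Per length, Ctss led in both genotypes, at 1558 and 1964 FPKM; Ctsk came next in control cells at 1193 FPKM and stood at 910 FPKM in cKO cells, below Ctsb at 1127 FPKM.

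Car2 was the leading carbonic anhydrase, at 25.9 FPKM in control and 19.1 FPKM in cKO cells, followed by Car13 at 10.4 and 9.24 FPKM; 0 of 10 tested were called, and Car13 was at -0.19 ± 0.09 (edgeR adjusted p = 0.325). Clcn7 led the CLC exchangers, with Clcn4 next at 9.03 and 9.22 FPKM, and 0 of 7 were called. Slc4a2 led the SLC4 family, with the sodium-bicarbonate cotransporter Slc4a7 next at 6.23 and 5.61 FPKM, and 0 of 7 were called. Of the 3 VPS10 receptors tested Sort1 was called, and Sorl1, a relative that also sorts between Golgi and endosomes, was at 0.15 ± 0.08 (adjusted p = 0.382). Of 4 calcitonin receptor and RAMP genes and 3 PLEKHM genes none was called.

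**Figure D5:**
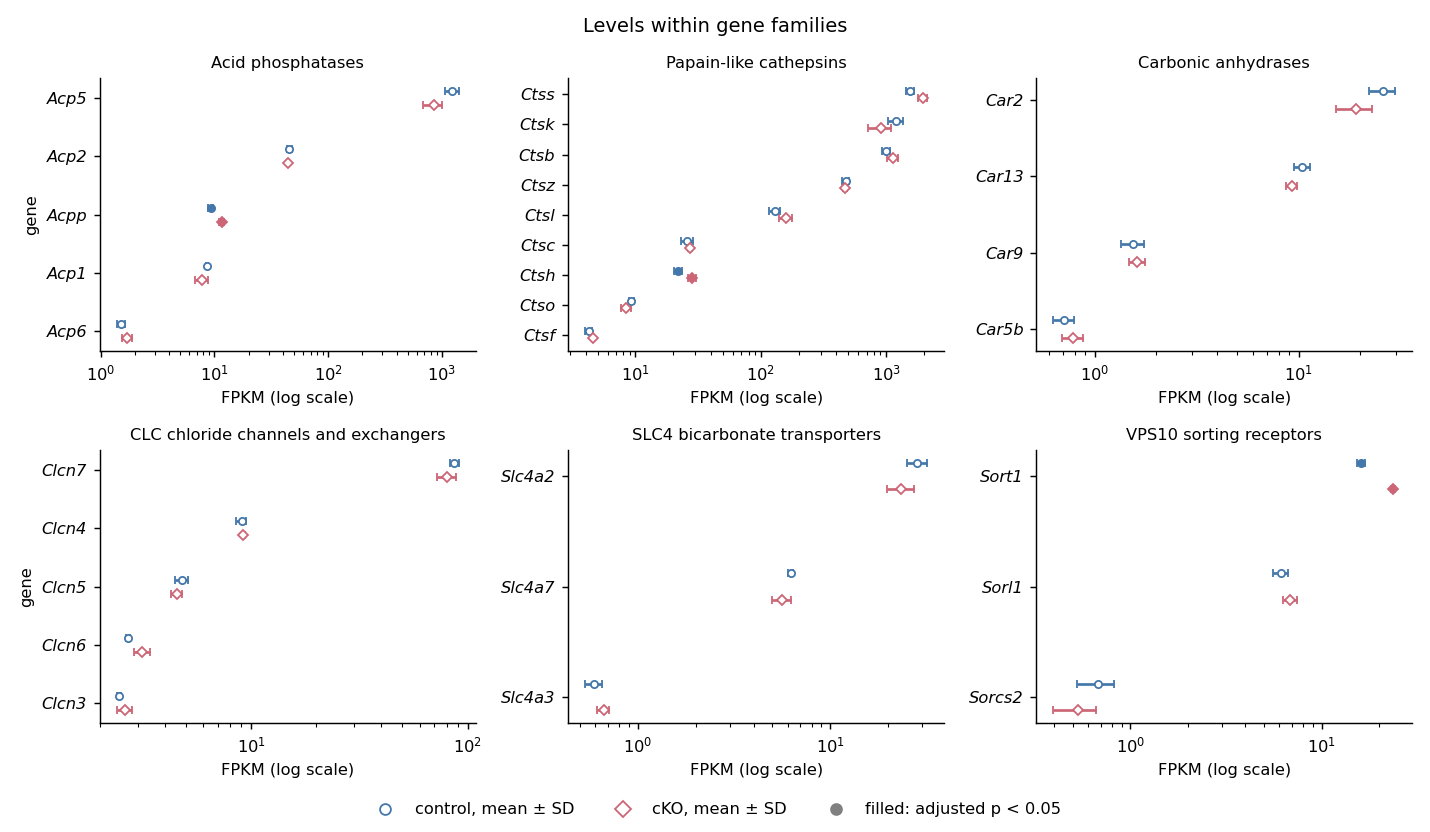
Mean ± SD of the authors' FPKM (x axis, log scale, n = 3) in control and cKO cells for the members of 6 families with at least 0.5 FPKM in control cells; filled symbols passed the edgeR test. Acp5, Car2, Clcn7, Slc4a2 and Sort1 are the highest of their families, and Sort1, Acpp and Ctsh are filled.

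Among 29 sorting nexins tested, 0 rose and 2 fell, and Snx10 was not one of them. Snx6, part of the retromer-linked coat of endosomes, fell from 81.3 ± 3.04 to 59.4 ± 1.48 CPM (-0.45 ± 0.06, edgeR adjusted p = 0.00219), and Snx20, which binds the selectin ligand PSGL-1, from 42.8 ± 1.12 to 30.8 ± 0.83 CPM (-0.48 ± 0.07, adjusted p = 0.00441). Both calls held without any library in turn, at adjusted p of up to 0.0369 and 0.0489. In the list of retromer, GGA and mannose 6-phosphate sorting genes, which work in the same route as sortilin, 0 of 15 rose and 1 fell, with a median of -0.04. That gene was Gga2, an adaptor that loads cargo at the Golgi (131 ± 2.23 to 108 ± 10.1 CPM, adjusted p = 0.0497), and the call was kept only without cKO replicate 3 when libraries were left out in turn. The retromer core gene Vps35 was at -0.23 ± 0.06 (adjusted p = 0.062) and the mannose 6-phosphate receptor gene M6pr at -0.13 ± 0.06 (0.303).

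The proton pump, which works with these members, had more calls. Of 18 genes tested 0 rose and 8 fell, with a median of -0.28, and 17 were negative. Atp6v1h, a regulatory subunit, was at -0.46 ± 0.08 (edgeR adjusted p = 0.0115) and Atp6v1g1 at -0.34 ± 0.06 (0.0129), and both stayed called only without control replicate 2, cKO replicate 2 or cKO replicate 3 (up to 0.108 and 0.126, without cKO replicate 1). All 8 calls were lost without control replicate 1, without control replicate 3 and without cKO replicate 1. In those fits 0.522%, 0.667% and 0.341% of all genes were called. With the trend over transcript length removed, 5 of the 8 were lost: Atp6v1g1 (-0.22, adjusted p = 0.0919), Atp6v0c (0.0819), Atp6ap2 (0.109), Atp6v0b (0.159) and Atp6v0d1 (0.16). Tcirg1, the pump subunit whose loss is a common cause of osteopetrosis, did not pass (-0.04 ± 0.07, adjusted p = 0.825). Of 33 genes for lysosome traffic to the ruffled border, 0 rose and 0 fell, and the median was -0.03. At an unadjusted edgeR p below 0.05, 2 were higher and 4 lower, where 8.79% of all genes were lower. Def8, a partner of Plekhm1, was at 0.35 ± 0.09 (adjusted p = 0.0664), Rab38 at -0.53 ± 0.19 (0.225) and Rab7 itself at -0.12 ± 0.06 (0.302).

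Of 25 transcription factors of osteoclast genes, 1 rose and 2 fell, with a median of -0.10. Relb and Nfkb2 of the non-canonical NF-kB pathway fell (edgeR adjusted p of 0.0321 and 0.0428) and the repressor Bcl6 rose (0.00876), and with libraries left out in turn Bcl6 stayed called without control replicate 2, cKO replicate 2 or cKO replicate 3, and Relb and Nfkb2 only without cKO replicate 3. Factors tied to the promoter motifs above did not pass: Mitf was at 0.17 ± 0.06 (adjusted p = 0.179), Tfeb at 0.13 ± 0.10 (0.588), Tfec at -0.30 ± 0.08 (0.09), Spi1, which encodes PU.1, at -0.08 ± 0.07 (0.641), and Nfatc1 at -0.24 ± 0.14 (0.44).

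Genes whose levels followed a member most closely were sought among 6830 others at a mean of at least 20 CPM, by Pearson correlation of log2 CPM over the 6 libraries, which include the genotype difference. With so few libraries such likeness is common: 418 genes correlated above 0.9 with Acp5 and 218 with Sort1. The closest to Acp5 were Atp5b, Ndufv2 and Smpd1 (r of 0.996, 0.996 and 0.995), a subunit of ATP synthase, a subunit of complex I and acid sphingomyelinase. The closest to Ctsk were Slc31a1, the copper importer, Cant1 and Immt (0.998 each). Ostm1 was followed by Fam114a2, by the proton pump gene Atp6v1h and by Hspa9 (0.998, 0.996 and 0.996). Sort1 was followed by Rassf3, Rufy2 and Samhd1 (0.994, 0.992 and 0.991), of which Rassf3 and Samhd1 also rose (0.24 ± 0.05 and 0.26 ± 0.05, edgeR adjusted p of 0.0378 and 0.0328; both calls were kept only without cKO replicate 3 when libraries were left out in turn). For the other members the closest included Zswim4, Sft2d2 and Tgfbr2 (Car2), Galnt6, Ptpro and Abcf3 (Clcn7), Dlst and Pip5k1b (Slc4a2), Mtus1, mt-Tl1 and Cyp4v3 (Calcr), Acly, Rreb1 and Akap9 (Plekhm1), and Ptpn22, Pdk1 and Spred1 (Snx10).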

How the data were processed

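Messenger RNA was captured on oligo(dT) beads from 5 µg of RNA per sample and read as dUTP-marked, thus stranded, libraries with 300 bp mean inserts, per the labels' protocols. Cutadapt 1.9, a read trimmer, and the build mm10 are listed in the submitters' processing notes. No source used here gives the aligner, the counter, the annotation or the strand setting. Each deposited table gives, per the file headers, a raw read count and an FPKM for every gene, the latter calculated by the authors. FPKM was used only to compare levels between genes. Total counts are in the report and limit precision through counting error; no pair of replicates agreed within sampling noise (chi-square per degree of freedom of 16.2 to 36.2).

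Counts were tested with edgeR 4.0.16 (R 4.3.3): filterByExpr with a minimum count of 10 and total of 15, TMM, robust quasi-likelihood F test, 3 libraries per genotype, Benjamini-Hochberg over all genes tested. SE is the log2 fold change divided by the square root of F, and 95% intervals use the test's degrees of freedom. Levels are CPM after TMM. The method was tested on simulated counts with the same variability setting for every gene. That test therefore does not show how calls hold for genes that vary more between replicates. Alternatives were DESeq2 1.42.0 size factors and Wald test, limma 3.58.1 voom with sample weights, no filter, a replicate block, offsets removing a loess trend (span 0.5) over GENCODE M21 exon length, and each library left out.

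The members and lists were chosen with earlier results of these data known. Genes named are the members; in each list those called and up to 4 others by smallest p, with the 2 highest by FPKM in a family; and the 3 closest genes of each member at 20 CPM or more, of which 1 is not reported here. Tcirg1, Rab7, Tfeb, Spi1, Nfatc1, Mmp9, Itgb3, Itgax, Pf4, Flt3, Xcr1, Col1a1, Col1a2, F13a1, Ccr2, C1qa and Alpl were named for their role after their values were seen. The cell type markers Plac8, S100a8, S100a9, Ngp, Ltf, Mpo, Ocstamp, Atp6v0d2, Mertk, Itga2b, Ppbp, Gp9 and Gp1bb were also named after that, some for their direction or level. Identical symbols are shared by 102 rows, none a member.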

Additional observations from a re-analysis of the deposited data

How the results depend on the processing

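Sort1 was called in all 12 alternatives. With a library left out, 54 values of single members kept direction and side of the threshold, 4 became calls and 2 turned sign; under the other alternatives the counts were 50, 9 and 1. Those that turned were Plekhm1: 0.001 with DESeq2 size factors, and over the fits without a library a range of -0.07 to 0.069. Plekhm3, a relative, ranged from -0.064 to 0.01, turning without control replicate 2. The number of members called was 3 with DESeq2's Wald test (Car2, Ostm1 and Sort1), 2 with limma-voom and sample weights (Ostm1 and Sort1), and 1 to 5 with a library left out. The number of genes called was 407 of all tested, 800 with DESeq2, 704 with limma-voom and 59 to 624 with a library left out. With the trend over transcript length removed, 244 genes were called higher and 115 lower, against 229 and 178, and Sort1 stayed the only member called, while 5 of 8 proton pump calls were lost. The members' median ranged from -0.471 to -0.19 with a library left out. With the replicate number as a block, 7 members and 673 genes were called. The labels do not say that same-numbered libraries share a mouse or day. Their deviations from the group means correlated at -0.0765, 0.0496 and 0.262 for numbers 1 to 3. Only the libraries numbered 3 correlated best with their own number. Control replicate 1 correlated best with cKO replicate 2 (0.147), and control replicate 2 with cKO replicate 1 (0.14). The cause of these shifts was not tested.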

Other observations

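Of 20 matrix proteases and inhibitors tested, 2 rose and 0 fell by edgeR's quasi-likelihood test, with a median of 0.09. Mmp12, macrophage elastase, rose from 2667 ± 261 to 3449 ± 193 CPM (0.37 ± 0.08, adjusted p = 0.0309; kept only without control replicate 2 or cKO replicate 3, and 0.133 without control replicate 1), and the other was Ctsh. Mmp9, a gelatinase of osteoclasts, was at -0.45 ± 0.17 (adjusted p = 0.248), and Mmp13, a collagenase, at 0.48 ± 0.13 (0.0839). Of 18 genes of attachment and the sealing zone, 0 rose and 0 fell, with a median of -0.04. At an unadjusted edgeR p below 0.05, 2 of them were lower, where 8.79% of all genes were. Src, a kinase needed for the ruffled border, was at -0.32 ± 0.10 (adjusted p = 0.13) and Arpc2 at -0.20 ± 0.05 (0.0712). The integrin genes Itgav and Itgb3 were at -0.28 ± 0.15 (0.396) and -0.16 ± 0.21 (0.755).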
